A study of Bos indicus with 11 samples.

Results

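GRIA2 and 7 related genes that are best known from the synapses of neurons were followed in the bovine endometrium around the time of embryo arrival. They were the 4 subunits of the AMPA glutamate receptor (GRIA1, GRIA2, GRIA3 and GRIA4), the vesicle calcium sensor SYT1, the adhesion genes LRRC4C and LRRC4, and NTNG1, and they made up 8 of the 24616 rows of the deposited table. Each was taken as the row that carries its symbol. The set was chosen by the levels of GRIA2, LRRC4C and SYT1 in these same cows, with the other genes added as their relatives, so every comparison of the 8 genes between the groups is given as a description, without a test.

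At a synapse, glutamate released from vesicles opens AMPA receptors, which are channels assembled from the 4 GRIA subunits. GRIA2, once its transcript has been edited, makes the channel nearly impermeable to calcium. Synaptotagmin 1, the product of SYT1, binds calcium and triggers the fusion of vesicles with the membrane. LRRC4C (also called netrin-G ligand 1) and LRRC4 (netrin-G ligand 2) are adhesion proteins of the receiving side, and netrin-G1, the product of NTNG1, is the partner that LRRC4C binds on axons. In the uterus they are not standard markers of any single cell type, and autonomic and sensory nerve fibres, glandular epithelium and smooth muscle are all part of the tissue.

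RNA-Seq was performed on endometrial biopsies of 11 healthy, multiparous Nelore (Bos indicus) cows. All 11 cows had their estrus synchronized with a prostaglandin analogue and were inseminated at detected estrus. The biopsy was taken on day 6 after AI from the uterine horn opposite to the corpus luteum. A diagnosis on day 30 divided the animals into 6 pregnant (P) and 5 non-pregnant (NP) cows, so that the groups differed in the outcome of the same insemination and in no treatment. Each cow was 1 replicate.

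Between 9290949 and 13569085 reads were counted on genes per cow, and 1 read was worth 0.784 to 1.14 normalized counts. All 12 epithelial and all 9 stromal fibroblast marker rows passed the filter on low values (a mean of at least 5 normalized counts). All 10 smooth muscle marker rows passed it as well, so the filter does not identify the tissue. The smooth muscle score, the mean log2(normalized count + 1) of 10 marker rows such as DES and MYH11, ranged from 12.3 to 15.1 in P and from 11.4 to 14.1 in NP cows. Cows P617 (15.1) and P1541 (14.8) stood highest. P617 also had the lowest epithelial score, 7.29 against at least 9.32 in the other cows. The sample labels give P617 as pregnant, whereas a supplement of the study lists it as non-pregnant. It was kept as P, and the results that rest on P617 and P1541 are given with and without them.

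GRIA2 was nearly absent from P cows and present in every NP cow. In P cows, 0 reads were found in P904 and P617, 1 read each in P1541 and P2396, 2 reads in P1631 and 3 reads in P1753, or 7 reads in all. The 5 NP cows together held 212 reads. Their normalized counts were 99.6 in NP2541, 33.4 in NP238, 22.4 in NP2810, 20.3 in NP638 and 10.8 in NP856. The lowest NP cow therefore still stood 3.54 times above the level of 3 reads, which is the highest number in any P cow. The groups did not overlap with P617 kept as P. Counted as NP, P617 with 0 reads would make them overlap. NP2541 stood apart within its own group.

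The mean level of GRIA2 was 37.3 ± 35.7 normalized counts (SD, n = 5) in NP against 1.19 ± 1.23 (SD, n = 6) in P cows. Since no P cow had more than 3 reads, the fold was taken against 3 reads per cow, or 3.04 normalized counts, and the NP mean was at least 12.3-fold higher. Without NP2541 the NP mean was 21.7 and at least 7.14-fold higher. On the log2(normalized count + 1) scale the difference was 3.92 (SE 0.60), between 3.47 and 4.25 over the 11 fits that each lack 1 cow, and 3.70 without P617 and P1541. With P617 counted as NP it was 2.92. In biopsies of whole tissue, fewer cells of a type and less RNA per cell cannot be told apart.

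GRIA2 was the only member of its receptor family whose P and NP cows did not overlap. GRIA3, another channel subunit, ranged from 127 to 319 normalized counts in 5 of the P cows but was 2.26 in P617. In NP cows it was 481 in NP238, 301 in NP856, 208 in NP2541, 128 in NP638 and 99.9 in NP2810. The NP values thus lay on both sides of most P values. The mean was 244 ± 154 (SD, n = 5) in NP and 169 ± 105 (SD, n = 6) in P cows. The log2 difference of 1.09 (SE 1.16) rested on P617, as it was 0.11 without this cow.

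GRIA4, a subunit known from fast excitatory synapses, was highest in the 2 muscle-rich P cows. It reached 615 normalized counts in P617 and 261 in P1541 and was 27.8 to 51.3 in the other P cows. In NP cows it was 149 in NP638, 61.2 in NP2541, 26.3 in NP238, 25.5 in NP2810 and 8.60 in NP856. NP638, with the highest value of its group, also had the highest smooth muscle score among NP cows. The log2 difference, NP minus P, was -1.20 (SE 1.02) over all cows, -0.06 without P617 and P1541, and 0.48 with the smooth muscle score as a covariate.

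GRIA1, whose product is inserted into synapses as they strengthen, was low in all cows. It was 2.87 to 32.8 normalized counts in P cows, with a median of 14.6, and 18.8 in NP2541, 13.1 in NP238, 8.12 in NP638, 2.15 in NP856 and 1.02 in NP2810. The log2 difference of -1.07 (SE 0.75) was smaller than the SD of the NP cows, 1.41. The groups overlapped over most of their range.

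The make-up of the AMPA receptor reads differed between cows. Between 146 and 575 reads fell on the 4 subunits in a cow. GRIA2 took from 0 to 0.870% of them in P cows (95% Wilson interval of the highest 0.239 to 3.11%). A count of 0 in P904 and P617 allows a share of up to 1.17% and 0.522%, respectively. In NP cows, the GRIA2 share was 3.33% in NP856 (1.82 to 6.03%), 6.02% in NP238 (4.32 to 8.34%), 6.64% in NP638 (4.34 to 10.04%), 15.1% in NP2810 (10.2 to 21.8%) and 25.7% in NP2541 (22.1 to 29.7%). These intervals and limits cover counting error only. GRIA3 held most of the reads in 8 of the 11 cows, and GRIA4 was ahead in the 3 cows with the highest smooth muscle scores, with 94.6% in P617, 65.2% in P1541 and 48.8% in NP638.

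SYT1 was also lower in every P cow than in any NP cow, by a narrow margin. Its normalized counts were 0 in P617, 3.87 in P1541, 13.1 in P2396, 16.1 in P1753, 20.6 in P1631 and 23.0 in P904. In NP cows they were 26.4 in NP638, 30.1 in NP856, 51.0 in NP2541, 74.4 in NP2810 and 102 in NP238. The 2 muscle-rich P cows were the lowest of all. The mean was 56.8 ± 31.8 (SD, n = 5) in NP and 12.8 ± 9.15 (SD, n = 6) in P cows, a ratio of 4.45. The log2 difference of 2.47 (SE 0.86) was 1.44 without P617 and P1541, 1.20 with the smooth muscle score as a covariate, and 1.03 with a score of neuron and glia markers as a covariate. With P617 counted as NP it was 0.88, and the groups would overlap.

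LRRC4C, the netrin-G1 ligand, was higher in every NP cow than in any P cow. In P cows it was 22.0 normalized counts in P904, 12.6 in P1541, 10.3 in P1631, 8.75 in P2396, 2.26 in P617 and 2.01 in P1753. In NP cows it was 80.8 in NP2541, 45.5 in NP238, 35.5 in NP638, 34.7 in NP2810 and 25.8 in NP856. The gap between the highest P and the lowest NP cow was small. The means were 44.5 ± 21.5 (SD, n = 5) and 9.65 ± 7.43 (SD, n = 6), a ratio of 4.60. The log2 difference was 2.34 (SE 0.58), 2.17 without P617 and P1541 and 2.03 with the smooth muscle score as a covariate. It thus moved less with the muscle-rich cows than that of SYT1. With the neuron and glia score as a covariate the difference of LRRC4C was 1.75. With P617 counted as NP it was 1.45, and the groups would overlap.

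NTNG1, the axonal partner of LRRC4C, did not share this pattern. It was highest in P617 (331 normalized counts) and P1541 (187), and 63.2 to 114 in the other P cows. In NP cows it was 157 in NP638, 118 in NP2810, 90.0 in NP238, 65.9 in NP2541 and 58.1 in NP856. The groups overlapped, and the log2 difference of -0.47 (SE 0.45) was 0.01 without P617 and P1541. LRRC4 had only 40 reads in all, 20 in each group, between 0.958 and 8.12 normalized counts per cow. At this depth a difference in LRRC4 was not detectable, and its log2 difference was 0.13.

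**Figure D1:**
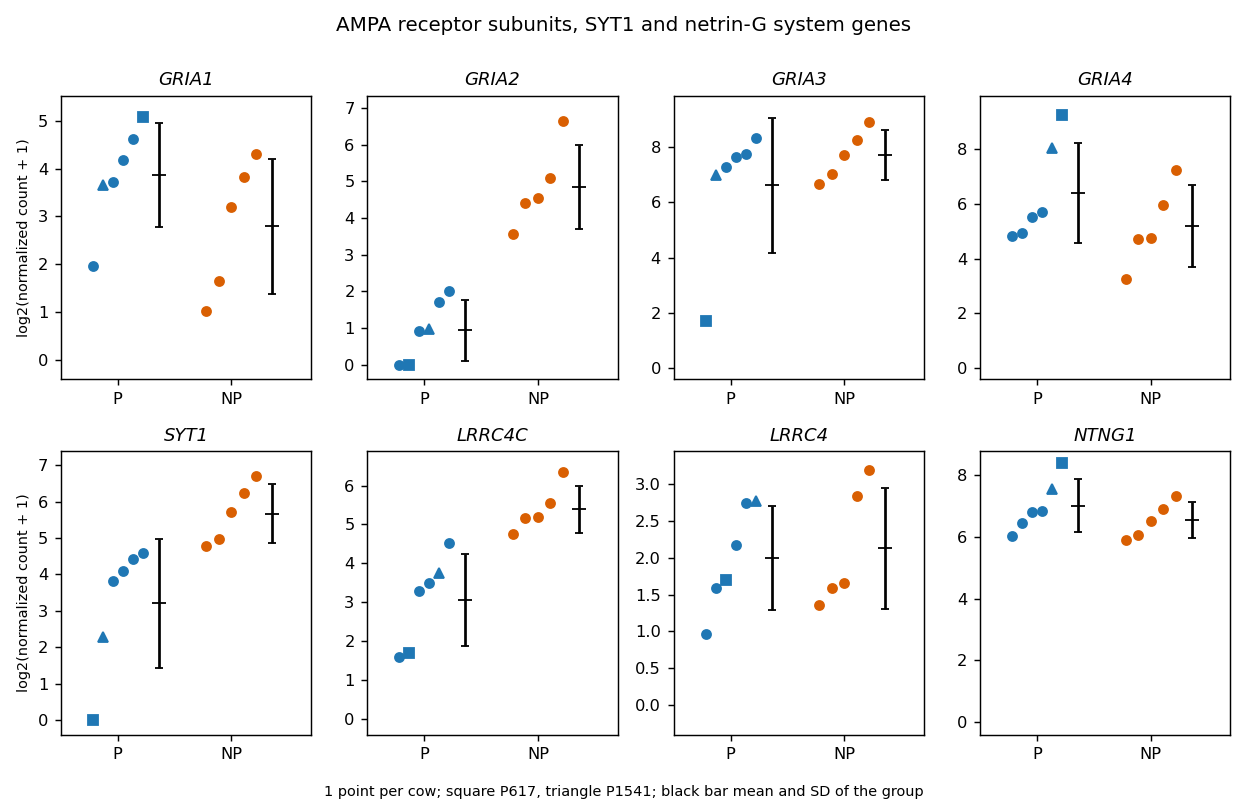
Levels of the 8 genes in each cow, as log2(normalized count + 1) on an axis of its own for each gene, with P cows in blue and NP cows in orange, P617 as a square, P1541 as a triangle, and the group mean and SD as a black bar. For GRIA2, LRRC4C and SYT1 every NP cow lies above every P cow, and for the other 5 genes the groups overlap.

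Of the 8 genes, 3 (GRIA2, SYT1 and LRRC4C) had every NP cow above every P cow, with P617 kept as P. The same held for 0.855% of the 15081 genes that passed the filter on low values. Of the 8 genes, LRRC4 was the 1 that did not pass it. As the 3 genes had been picked with these levels known, nothing is read from the count.

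The 7 genes past the filter did not all vary together among cows of 1 group. After the mean of its own group was subtracted from each cow, GRIA4 and NTNG1 went together (Pearson r = 0.85 over 11 cows, 0.75 without P617). Both followed the smooth muscle score, GRIA4 with r = 0.89 (0.87 without P617) and NTNG1 with r = 0.76 (0.67 without P617). SYT1 went the other way, with r = -0.80 against the smooth muscle score and 0.92 against the epithelial score (-0.81 and 0.74 without P617). Its r was largest with the score of the neuron markers, at 0.98 (0.93 without P617). The other nerve scores did not share this. SYT1 had r = 0.37 with the Schwann cell and glia score (-0.44 without P617). With the neuron and glia markers together r was 0.76 (0.11 without P617). It was 0.70 with the autonomic and sensory nerve score (0.28 without P617) and -0.81 with the neuroendocrine score (-0.49 without P617). These points share the same 11 libraries, in which P617 has both the highest muscle and the lowest epithelial score, and the part of tissue composition in the levels was not tested.

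GRIA2 had an r of 0.01 with the smooth muscle score and 0.40 with the epithelial score (0.22 with either without P617). Among the other genes it was nearest to GRIA1, with r = 0.50 (0.71 without P617). Its r was 0.40 with SYT1 and 0.37 with GRIA3 (0.21 and 0.15 without P617), 0.17 with LRRC4C, 0.03 with GRIA4 and -0.22 with NTNG1. In P cows all r values of GRIA2 rest on 0 to 3 reads per cow, and GRIA1 had 1 to 29 reads per cow. Counting error was not separated from differences between cows. GRIA3 followed the epithelial score with r = 0.90, but r was 0.37 without P617. GRIA3 and SYT1 likewise went together with r = 0.85, and with 0.42 without P617.

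**Figure D2:**
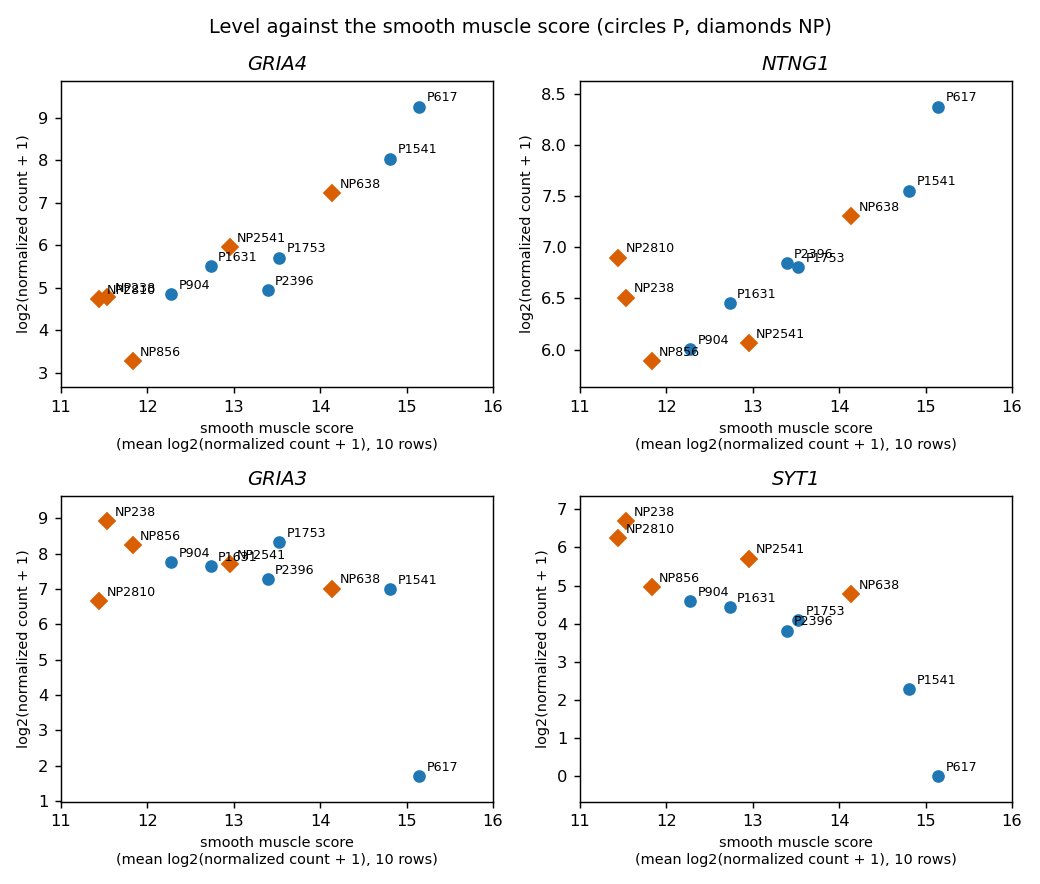
Level of GRIA4, NTNG1, GRIA3 and SYT1, as log2(normalized count + 1), against the smooth muscle score of each cow (mean log2(normalized count + 1) of 10 rows), with P cows as blue circles and NP cows as orange diamonds. GRIA4 and NTNG1 are highest in P617, P1541 and NP638, the cows with the highest scores, SYT1 is lowest in P617 and P1541, and GRIA3 is low in P617 alone.

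**Figure D3:**
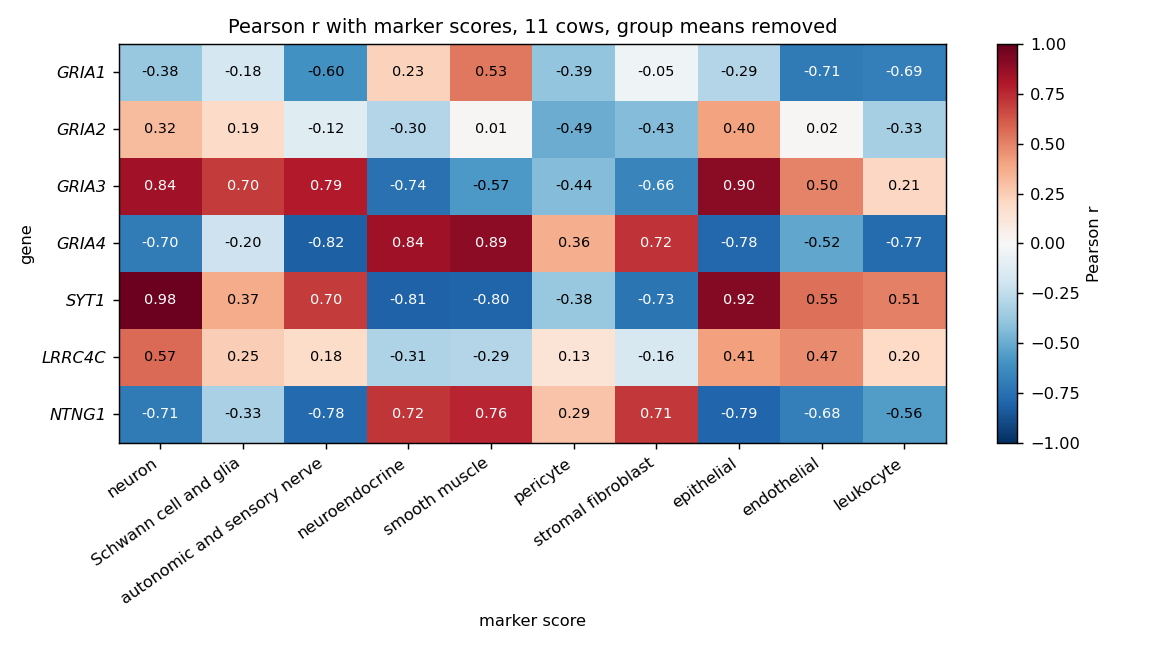
Pearson r over 11 cows, with the group means removed, between 7 of the genes (rows) and the scores of 10 marker lists (columns), red for positive and blue for negative values. SYT1 is closest to the neuron score (0.98) and the epithelial score (0.92), GRIA4 to the smooth muscle score (0.89), and for GRIA2 the value of greatest size is -0.49, with the pericyte score.

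Genes with the most similar pattern within the groups differed from member to member. For SYT1 they were INVS, WNT16 and ENO2, each with r = 0.97 over 11 cows, of which ENO2, neuron-specific enolase, also stands in the neuron list. GRIA4 was closest to RXRB (0.99), TENC1 (0.97) and MAGED4B (0.97), and NTNG1 to DHX35 and UBTD2, each at 0.97, and a gene without a symbol (0.96). For GRIA3 they were SAMD12, SCUBE1 and SLC6A6, each at 0.97, which fell to between 0.79 and 0.84 without P617. GRIA1 was closest to NEK7 (0.94), UBTF (0.91) and C17H4orf29 (0.90), GRIA2 to a gene without a symbol (0.88) and to ZNF787 and ADPRM (0.87 each), and LRRC4C to a gene without a symbol (0.89) and to DYNC2LI1 (0.88) and LOC516599 (0.86). These values rest on the same 11 libraries and were picked as the highest among 15081 genes, and they are given only as a description. Those of GRIA2 also rest on at most 3 reads in each P cow.

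Markers of neurons were mixed, some without reads and others present in every cow. Of 16 neuron rows, 10 passed the filter. ELAVL4 and GAP43 had 0 reads in every cow, and ELAVL3 and NEFM had 1 read each in all 11 cows together. RBFOX3, which encodes the nuclear antigen NeuN, was 0 to 14.5 normalized counts in P and 0 to 3.04 in NP cows. Others were found in all or most cows. MAP2, a dendritic cytoskeletal protein, was 5.65 to 43.1 in P and 24.3 to 43.6 in NP cows. NSG1, a neuronal endosomal protein, was 21.5 to 115 and 67.3 to 167, and STMN2, a stathmin of growing axons, 0 to 64.2 and 17.2 to 106. The groups overlapped in each of these. The summed level of the 16 neuron rows was 182 to 796 in P and 498 to 1049 in NP cows, of which 42.6% came from a row that the table assigns to TUBB6 and TUBB3 together. Of the transmitter and neuropeptide markers of autonomic and sensory fibres, CHAT, CALCA and CARTPT had 0 reads in every cow. TH, the first enzyme of catecholamine synthesis, had a read in every cow (1.13 to 15.8 in P, 5.07 to 14.0 in NP cows), and NPY (0 to 50.8 and 3.14 to 57.1) and NOS1 (0 to 80.5 and 1.57 to 73.1) in 10 of the 11 cows. The summed level of that list of 15 rows was 94.9 to 627 in P and 252 to 437 in NP cows, with 78.3% from the vesicular monoamine transporter SLC18A2. NEFH, a neurofilament, was higher in NP cows by 1.88 on the log2 scale (SE 0.77, limma unadjusted p = 0.0315, adjusted p = 0.564), and ENO2 by 1.56 (SE 0.71, unadjusted p = 0.0494, adjusted p = 0.637). Neither passed the adjustment over all genes, and the unadjusted p rose above 0.05 without any 1 of 5 cows for NEFH (P1631, P1753, P617, NP2541 or NP2810; highest 0.0911) and without any 1 of 6 cows for ENO2 (P1541, P1631, NP2541, NP238, NP856 or NP2810; highest 0.0995). With P617 counted as NP it was 0.200 for NEFH and 0.807 for ENO2, and with the smooth muscle score as a covariate 0.0829 and 0.480.

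Some markers of Schwann cells, the glia that wrap nerve fibres, were present at low levels. The transcription factor SOX10 (0 to 34.8 normalized counts in P, 6.27 to 25.3 in NP cows) and CDH19 (0 to 16.5 and 1.02 to 35.4) overlapped between the groups, and PMP2 had 0 reads. The summed level of the 13 glia rows was 920 to 11104 in P and 6456 to 8904 in NP cows, with 69.0% from S100B.

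The genes of the synapse around the 8 genes were read from 7 lists, holding 118 rows without the 8 genes themselves. Of these, 76 passed the filter on the mean, and 8 had no read in any cow. With limma, 0 of the 76 passed the adjusted threshold of 0.1, as did 0 of all 15081 genes, and the smallest adjusted p in the lists was 0.323. At an unadjusted p under 0.05, 9 were higher and 2 lower in NP than in P cows. These were 14.5% of the 76 genes, against 7.84% of all genes tested (5.49% higher and 2.35% lower in NP). As the lists were chosen with earlier results of these data known, the shares are only a description. DESeq2 on the recovered reads called 4 of the 76 at an adjusted p under 0.1, all higher in NP cows (GRIK1, LRFN5, LRRTM3 and SLITRK6), against 1.33% of all genes (1.13% higher in NP). The quasi-likelihood test of edgeR called 0 at this threshold and 7.63% of all genes at an unadjusted p under 0.05. The median log2 difference of the 76 genes was 0.10, and that of all genes 0.0018.

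Among other ionotropic glutamate receptors, 4 of 11 rows passed the filter, with a median difference of 0.74. Of the 4, 1 (25%, against 7.84% of all genes tested) was higher in NP cows at an unadjusted p under 0.05. This gene was GRIK1, a kainate receptor subunit, whose row carries a second, uncharacterized gene name. It was 0 in P617, 10.6 in P1541 and 36.2 to 130 normalized counts in the other P cows, against 207 to 499 in NP cows, and the groups did not overlap. The log2 difference was 3.50 (SE 1.07, limma unadjusted p = 0.00683, adjusted p = 0.389) and the adjusted p with DESeq2 was 0.0975. Without P617 and P1541 it was 2.02 (unadjusted p = 0.000259), and with the smooth muscle score as a covariate 1.83 (unadjusted p = 0.0542). With P617 counted as NP it was 1.18 (unadjusted p = 0.429). GRIN1, the obligatory subunit of NMDA receptors, was 13.6 in P617 and 381 to 1523 in the other P cows, against 536 to 1686 in NP cows (unadjusted p = 0.299), and was chosen after its values were seen.

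The lists of metabotropic glutamate receptors (2 of 6 rows past the filter, median -0.10), of glutamate transport and recycling (5 of 10, median 0.19) and of proteins that assist or anchor AMPA receptors (11 of 18, median 0.02) had 0 genes at an unadjusted p under 0.05. In the last list, which includes the anchoring protein DLG4 (PSD-95), 6 of the 11 differences were above 0.

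Adhesion proteins of the synapse were the list with the most differences. Of 24 rows, 17 passed the filter, 5 were higher and 1 lower in NP cows, and the median was 0.23. At an unadjusted p under 0.05 this was 35.3% of the 17, against 7.84% of all genes tested. SLITRK6, an adhesion protein with leucine-rich repeats, was 4.52 to 27.1 normalized counts in P and 29.8 to 54.8 in NP cows without overlap (1.60, SE 0.43, limma unadjusted p = 0.00287, adjusted p = 0.323, DESeq2 adjusted p = 0.0491). With P617 counted as NP its difference was 0.85 (unadjusted p = 0.171). LRRTM3, a postsynaptic ligand of neurexins, was 0 to 8.62 in P and 5.10 to 67.8 in NP cows (2.77, SE 0.75, unadjusted p = 0.00334, adjusted p = 0.330). NRXN2, a neurexin, was 92.5 to 424 in P and 362 to 562 in NP cows (1.01, SE 0.32, unadjusted p = 0.00880, adjusted p = 0.423). The study drew its gene lists from these same libraries and names LRRC4C and SYT1 among the genes higher in NP cows. The direction of LRRC4C and SYT1, and that of SLITRK6 and LRRTM3, is therefore not independent evidence.

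LRFN5, another adhesion protein with leucine-rich repeats, was the only gene of the lists past the filter, besides GRIA2, with at most 3 reads in every P cow. The 6 P cows had 9 reads in all, whereas the NP cows were at 91.0 normalized counts in NP238, 68.8 in NP856, 36.1 in NP2541, 11.2 in NP2810 and 1.01 in NP638. NP638, at 1 read, lay within the P range. The NP mean of 41.6 was at least 13.7-fold higher than 3 reads per cow (limma unadjusted p = 0.00338, adjusted p = 0.331, DESeq2 adjusted p = 0.000958). NP238, first for LRFN5, came after NP2541 for GRIA2, and NP2541 came after NP238 and NP856 for LRFN5.

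The other relatives of the netrin-G system differed in both directions. These genes fell outside the limit of 4 genes per list and were chosen after their values were seen. LRRC4B, the remaining gene of the LRRC4 family, was 0 to 25.4 normalized counts in P and 11.2 to 62.7 in NP cows (2.12, SE 0.80, limma unadjusted p = 0.0217, adjusted p = 0.514). NTNG2, the other netrin-G, was 55.1 to 99.4 in P and 38.7 to 59.9 in NP cows (-0.67, SE 0.22, unadjusted p = 0.0117, adjusted p = 0.459).

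Of the relatives of SYT1, 12 of 19 rows passed the filter and 1 was higher in NP cows, with a median of 0.18. This was 8.33% of the 12, against 7.84% of all genes tested. SYTL3, a synaptotagmin-like protein that binds Rab27, was 10.2 to 99.6 normalized counts in P and 43.1 to 91.7 in NP cows (1.20, limma unadjusted p = 0.0282, adjusted p = 0.554). The unadjusted p rose above 0.05 without any 1 of 4 cows (P1541, NP238, NP856 or NP2810; highest 0.0650) and was 0.104 without P617 and P1541, 0.413 with P617 counted as NP and 0.265 with the smooth muscle score as a covariate. SYT4 varied widely, from 0 to 895 in P and from 0 to 1027 in NP cows. It was above 500 in P1541, P1631, NP238, NP856 and NP2810 and at most 7.06 in the other 6 cows, a split that did not follow the groups and was picked out after its values were seen.

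In the machinery with which synaptotagmin works, 12% of tested genes had an unadjusted p under 0.05, against 7.84% of all genes. Of 30 rows for vesicle fusion, 25 passed the filter, 2 were higher and 1 lower in NP cows, and the median was -0.04. SYN3, a synapsin that coats vesicles, was higher in NP cows (1.28, limma unadjusted p = 0.0178, adjusted p = 0.496), as was the calcium sensor DOC2B (1.05, unadjusted p = 0.0237, adjusted p = 0.522). RIMS1, a scaffold of the release site, was lower in NP cows (-1.41, unadjusted p = 0.0202, adjusted p = 0.512), and was highest in P617 (940 normalized counts) and P1541 (616). With the smooth muscle score as a covariate the difference of RIMS1 was -0.41 (unadjusted p = 0.141), that of DOC2B 0.51 (unadjusted p = 0.199) and that of SYN3 1.08 (unadjusted p = 0.0752). With P617 counted as NP the unadjusted p was 0.344 for RIMS1, 0.422 for DOC2B and 0.260 for SYN3. Without P617 and P1541 the unadjusted p was 0.0758 for SYN3, 0.0905 for RIMS1 and 0.0581 for DOC2B. It also rose above 0.05 without NP2541 or NP856 for SYN3 (highest 0.0511), without NP2810 for RIMS1 (0.0578), and without P1541, NP2541 or NP856 for DOC2B (highest 0.0556). SNAP25, the membrane partner that SYT1 acts on, was 126 to 452 in P and 70.3 to 290 in NP cows (-0.85, unadjusted p = 0.0573) and was chosen after its values were seen.

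**Figure D4:**
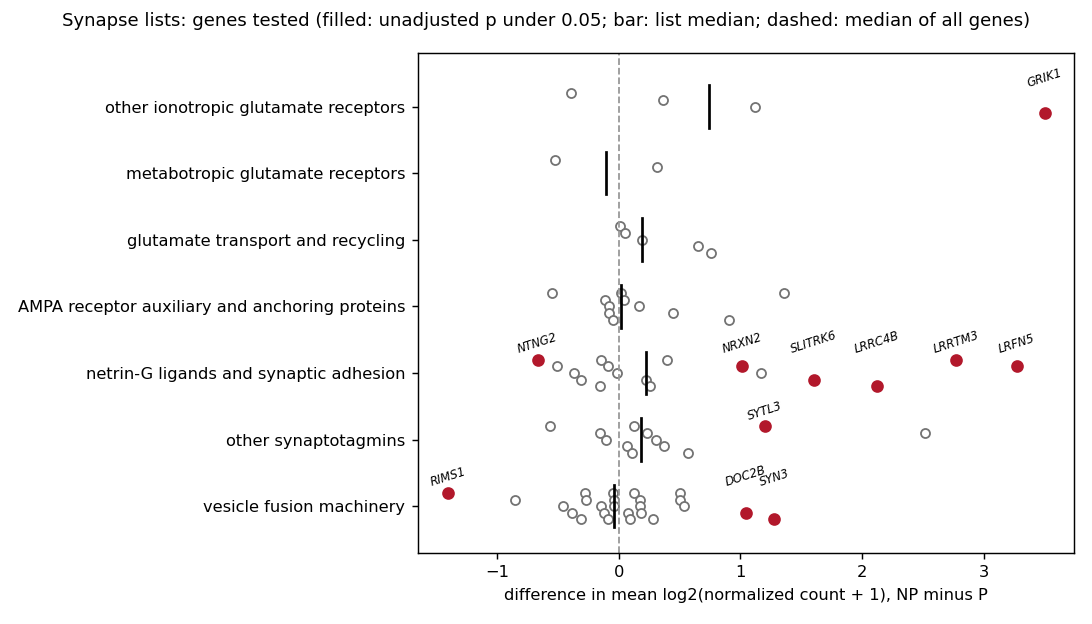
Difference in mean log2(normalized count + 1), NP minus P, of each tested gene in the 7 synapse lists, with filled points for an unadjusted limma p under 0.05, black bars for list medians and a dashed line for the median of all genes. The 9 filled points on the right and the 2 on the left are the genes named in the text, and most points lie near the dashed line.

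**Figure D5:**
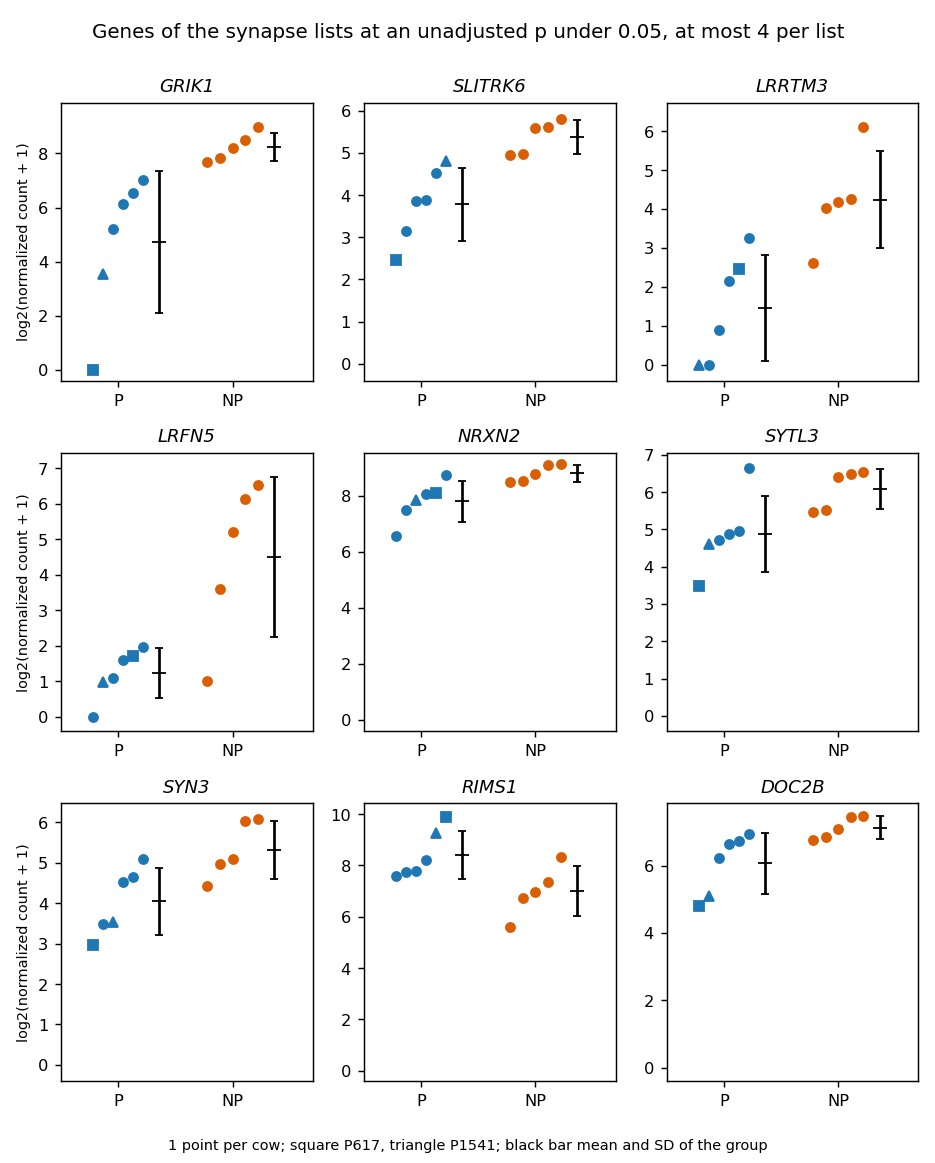
Levels in each cow, as log2(normalized count + 1), of 9 genes of the synapse lists at an unadjusted p under 0.05, with symbols as in the plot of the 8 genes. GRIK1 and SLITRK6 are the 2 genes in which the groups do not overlap, and RIMS1 is the one with higher levels in P cows. Of all genes tested, 0.855% had every NP cow above every P cow.

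Markers of the tissue's main cell types also differed between the groups. Of 87 marker rows that passed the filter, 22 were higher and 3 lower in NP cows at an unadjusted p under 0.05, or 28.7%, against 7.84% of all genes tested (5.49% higher and 2.35% lower in NP). The marker lists, too, were chosen with earlier results of these data known. Endothelial markers had the most, with 9 of 10 higher in NP cows against the same 5.49%, among them CDH5 (0.96, limma unadjusted p = 0.00332) and TIE1 (0.94, unadjusted p = 0.00378), and their scores were 8.64 to 10.2 in P and 9.65 to 10.4 in NP cows. With P617 counted as NP the differences were 0.47 for CDH5 (unadjusted p = 0.221) and 0.40 for TIE1 (unadjusted p = 0.296). Among pericyte markers 3 of 6 were higher, including PDGFRB (0.82, unadjusted p = 1.95e-05, adjusted p = 0.147). Among leukocyte markers 4 of 10 were higher, including CD14 (0.84, unadjusted p = 0.00542), and among stromal markers 2 of 9, DCN (0.68, unadjusted p = 0.0281) and LUM (0.80, unadjusted p = 0.0492). The call was lost without any 1 of 4 cows for DCN (P1631, P1753, P2396 or NP2810) and without any 1 of 7 cows for LUM (these 4, NP2541, NP638 or NP856). With the smooth muscle score as a covariate the unadjusted p of LUM was 0.0534. The rows with the highest normalized counts, not corrected for length, were TUBB6/TUBB3 and ENO2 for neurons, S100B and ERBB3 for glia, SLC18A2 and SLC6A2 for nerve fibres, SCG5 and CHGA for neuroendocrine cells, ACTG2/ACTA2 and TAGLN for smooth muscle, PDGFRB and MCAM for pericytes, COL3A1 and COL1A2 for stroma, CLDN7 and EPCAM for epithelium, KDR and VWF for endothelium, and LCP1 and PTPRC for leukocytes.

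Smooth muscle markers lay in the opposite direction. All 10 had a difference below 0, with a median of -1.32, and DES (-1.48, limma unadjusted p = 0.0413) and MYH11 (-1.35, unadjusted p = 0.0495) had an unadjusted p under 0.05. Both calls were lost without any 1 of 7 cows (P1541, P1753, P2396, P617, NP238, NP856 or NP2810), and with P617 counted as NP (unadjusted p = 0.345 and 0.416), and both markers went into the smooth muscle score. Of 12 epithelial markers, KRT7 was lower in NP cows (-1.03, unadjusted p = 0.0175, and 0.148 with P617 counted as NP) and the list median was 0.32. The granin-family gene SCG5 was higher in NP cows among the neuroendocrine markers (0.55, unadjusted p = 0.00824). The part of these cell types in the levels of the 8 genes was not tested beyond the covariates given above. For GRIA2 the difference was 3.93 with the smooth muscle score, 3.83 with the epithelial score and 3.54 with the neuron and glia score as a covariate.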

How the data were processed

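Endometrial biopsies of 6 P and 5 NP cows were analysed. Per the labels and the study's methods, reads from the Illumina libraries (CASAVA 1.8.2) were mapped with Bowtie2 2.1.0 to UMD3.1 and counted per gene with HTSeq 0.5.4p2. The authors deposited 1 table of counts normalized with DESeq2 1.12.1, a signal that is never negative. The annotation and the use of strand are not given in the sources used here, so overlapping or near-identical genes are uncertain. Groups were taken from the labels. The 8 genes and all gene lists were chosen with earlier results of these data known.

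Division by each column's smallest positive value gave whole reads for 100% of values (tolerance 0.01). Any 2 libraries differed in at least 97.1% of genes. Genes with a mean of at least 5 normalized counts (15081) were compared with limma 3.58.1 (R 4.3.3, eBayes with trend) on log2(normalized count + 1), with the Benjamini-Hochberg adjustment at 0.1. Standard errors of the 8 genes come from the pooled SD of the cows and those of other genes from limma. Fold changes on this scale understate those of low genes. Alternatives were edgeR 4.0.16 and DESeq2 1.42.0 on recovered reads, TMM scaling, a pseudocount of 0.5, no filter, covariates, P617 counted as NP, and leaving out each cow. The limma step was tested on simulated data. Named were the 8 genes, at most 4 genes per synapse list and 2 per cell list at an unadjusted p under 0.05, the 2 highest genes of each cell list, markers near 0, and the 3 genes most like each member. Coordinates and sequences are not given, since the reference available is of another assembly. 1 gene of the cell lists that the rule would name is not reported here.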

Additional observations from a re-analysis of the deposited data

Results flagged for a closer look

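A single cow stood far from the rest of its group in 4 of the 56 groups of values examined with Dixon's test, and chance alone gives about 1 in 20. GRIA2 was 99.6 normalized counts in cow NP2541, with a gap to the next NP cow of 0.745 of the range of the group. LRRTM3 was 67.8 in cow NP238, with a gap of 0.790 of the range. SYTL3 was 99.6 in cow P904, with a gap of 0.781 of the range. The epithelial score was 9.57 in cow NP638, below the other NP cows, with a gap of 0.715 of the range.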

How the results depend on the processing

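No gene passed the adjusted threshold with limma or edgeR (1182 and 1151 at an unadjusted p under 0.05), whereas DESeq2 called 201 genes. Leaving out each cow gave 0 to 171 calls, the highest without P904, and leaving out P617 and P1541, chosen after seeing the data, gave 17. Of the synapse lists, 11 genes had an unadjusted p under 0.05, 8 to 12 when each cow was left out and 6 with P617 counted as NP. Of the cell lists it was 25 genes, 15 to 36 when each cow was left out (36 without P904, 16 without NP856, 15 without NP2810) and 11 with P617 as NP. With P617 as NP the log2 differences were 2.92 for GRIA2, -0.89 for GRIA3 and 0.88 for SYT1. With the neuron and glia score as a covariate they were -1.21 for GRIA3 and 1.03 for SYT1. The cause was not tested. The other alternatives moved each of the 8 genes by less than the SD among cows. Of 480 values for 24 named list genes, 386 kept their side of the threshold, 94 lost it and 0 changed direction, 14 of them lost with P617 as NP and 11 with the smooth muscle covariate. The shift of the median of all genes was at most 0.04 on the log2 scale. No paired analysis was possible because the labels number animals and pair no cows across groups. Depth limits GRIA2 in P cows to 7 reads and LRRC4 to 40, so neither has a fold with a firm size.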
